A study of Homo sapiens with 8 samples.

Results

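Accessible chromatin was described at 10 genes that encode subunits of ISWI chromatin remodellers: SMARCA5, SMARCA1, BAZ1A, BAZ1B, BAZ2A, BAZ2B, BPTF, CECR2, RSF1 and RBBP7. They are 10 of 19974 protein-coding genes in the RefSeq table of GRCh38.p14, which matches the hg38 build of the peak lists. Each gene was taken over its annotated span with 20 kb on each side. Chromatin was profiled by ATAC-seq, which uses a transposase to insert sequencing adapters where DNA is open, and the cells were of U2OS, an established line from a human osteosarcoma. They all received an siRNA for 72 h and were synchronised by a double thymidine block with a 3 h release into S phase. The 4 conditions were the control siRNA siGl3 untreated, siGl3 with 5 mM H2O2 for 30 min, siOrc6 untreated, and siOrc6 with the same H2O2 treatment. siOrc6 targets the mRNA of ORC6, which encodes a small subunit of the complex that marks replication origins. H2O2 is an oxidant that damages DNA.

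Each condition had 2 libraries, but 1 peak list for both, so no spread between replicates can be given and no test across samples was possible. Read depth is unknown. The authors also gave 4 lists of changed regions: those higher and those lower after siOrc6, each against siGl3 under the same treatment. Peaks of the 4 conditions that overlapped or touched were merged into 129052 regions, of which 71 lay at the ISWI genes. The rank of a peak is given as its signal percentile, the share of peaks in its own list with the same or a lower signal. That signal is summed over the bases of a peak, so wide peaks rank high, and since the lists differ in length, a difference in percentile between lists is not a measured change. A peak covered the start of ORC6 in all 4 lists, between the 99.3 and 99.6 percentiles. This does not check the knockdown, since an siRNA acts on the mRNA. Of marker genes with a listed start, 2 of 4 mesenchymal ones (SPARC and VIM), 2 of 2 epithelial, 3 of 3 neuronal and 0 of 2 blood markers had a start peak in all 4 lists. ALPL, an osteoblast marker, had none. Open starts of these genes therefore did not set the labelled cell type apart.

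ISWI remodellers are motors that use ATP to slide nucleosomes and set their spacing. SMARCA5 (also called SNF2H) and SMARCA1 (SNF2L) are the ATPases, and each works with partner subunits that decide where the motor acts. In dividing cells, complexes built on SMARCA5 are known for work on newly replicated DNA, in heterochromatin and at DNA damage.

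The promoters of 8 of the 10 genes are held in the RefSeq sequence table (GRCh38.p14), as 11 windows of 300 bases that run from 250 bases before a start to 50 after it. BAZ1A and BPTF are not in it. Shown here are both ATPase promoters, the BAZ2B promoter that shares a motif with them, the RBBP7 promoter, which lies in a region called changed, and that of CECR2, whose start lacked a peak in 3 lists. Each is written 5′ to 3′ on the strand of the gene, with the annotated start right after the first 250 bases. Capitals mark matches, on either strand, to TCTCGCGA (the core of a ZBTB33 motif), GGGCGG (SP factors), CCAAT (NFY) or the NRF1 motif.
SMARCA5, chr4:143513452-143513751, plus strand: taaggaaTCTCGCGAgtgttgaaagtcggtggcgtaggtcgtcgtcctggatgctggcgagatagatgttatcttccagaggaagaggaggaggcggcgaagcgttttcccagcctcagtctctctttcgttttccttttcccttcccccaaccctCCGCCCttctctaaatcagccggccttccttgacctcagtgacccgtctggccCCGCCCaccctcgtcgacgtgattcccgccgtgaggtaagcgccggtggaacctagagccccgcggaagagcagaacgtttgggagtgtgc
SMARCA1, chrX:129523441-129523740, minus strand: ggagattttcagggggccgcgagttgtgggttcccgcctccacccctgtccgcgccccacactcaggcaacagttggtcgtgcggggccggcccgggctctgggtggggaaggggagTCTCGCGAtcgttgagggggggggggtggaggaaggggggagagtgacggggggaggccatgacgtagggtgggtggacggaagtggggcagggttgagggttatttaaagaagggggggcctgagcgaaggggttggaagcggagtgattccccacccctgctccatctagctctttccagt
BAZ2B, chr2:159712393-159712692, minus strand: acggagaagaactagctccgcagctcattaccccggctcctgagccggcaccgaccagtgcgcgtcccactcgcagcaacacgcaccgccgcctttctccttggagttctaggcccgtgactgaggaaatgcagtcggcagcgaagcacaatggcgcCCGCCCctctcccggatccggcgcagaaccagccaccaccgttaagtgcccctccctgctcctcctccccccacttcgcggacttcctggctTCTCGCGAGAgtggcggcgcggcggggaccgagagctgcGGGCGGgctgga
RBBP7, chrX:16870313-16870612, minus strand: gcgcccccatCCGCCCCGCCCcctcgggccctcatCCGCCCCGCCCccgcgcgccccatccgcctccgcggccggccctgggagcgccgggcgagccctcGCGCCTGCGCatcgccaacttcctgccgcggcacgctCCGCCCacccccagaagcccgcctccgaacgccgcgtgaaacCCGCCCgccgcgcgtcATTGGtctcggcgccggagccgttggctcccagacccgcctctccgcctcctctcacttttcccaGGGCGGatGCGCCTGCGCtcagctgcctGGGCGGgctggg
CECR2, chr22:17359699-17359998, plus strand: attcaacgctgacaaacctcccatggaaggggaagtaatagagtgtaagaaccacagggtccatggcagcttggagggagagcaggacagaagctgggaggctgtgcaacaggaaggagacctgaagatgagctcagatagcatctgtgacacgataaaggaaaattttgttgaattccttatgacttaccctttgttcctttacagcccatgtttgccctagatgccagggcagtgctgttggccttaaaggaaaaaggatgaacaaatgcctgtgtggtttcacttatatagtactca

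The motif TCTCGCGA was found in the promoters of SMARCA5, SMARCA1 and BAZ2B, in 3 of the 11 windows, and 1.58% of 22132 promoter windows of coding genes hold it. All motif letters were chosen after these promoters were seen, so these counts show no enrichment. In BAZ2B it is present on both strands at overlapping positions, across the annotated start. In SMARCA5 it begins 243 bases before the start and in SMARCA1 133 bases before it. GGGCGG was common, in 9 of 11 windows and in 56.3% of all coding promoters. The RBBP7 window shown holds 8 matches to it, with 2 pairs that overlap, and 2 to the NRF1 motif, which is present in 7.41% of coding promoters. CCAAT was found for BAZ1B and RBBP7, against 34.6% of coding promoters. Further letters searched were CCGGAAG (ETS, 12.8% of coding promoters) and AAGATGGC (YY1, 3.54%), each found in the other RBBP7 window. TATAAA (the core promoter box bound by TBP, 9.46%), TGANTCA (AP-1, 6.15%), TGACGTCA (CRE, 2.26%) and TTTGGCGC (E2F, 0.818%) were in none of the 11. These matches describe the letters of the windows and are no measure of binding. The RBBP7 window was rich in G and C, at 78.3% with 44 CpG sites, against medians of 62.3% and 21 over coding promoters. The CECR2 window was poor in them, at 46.3% with 2 CpG sites. SMARCA5 had 59% and 25 CpG sites, and SMARCA1 66% and 17.

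The 10 genes differed widely in how many accessible regions they held. SMARCA5 had 2 regions in its window of 83.8 kb, SMARCA1 and BAZ1A 3 each, and CECR2 19 in 238 kb. Scaled for the length of the window, BAZ2A was the densest with 9.67 regions per 100 kb, followed by CECR2 (7.98) and RBBP7 (7.57). BAZ2B, the longest gene at 397 kb, was the sparsest with 1.83 per 100 kb, next to BAZ1A with 1.84. Of the 71 regions, 10 covered a listed start, 2 an annotated end of BAZ1A or BPTF, 32 lay elsewhere in a gene body and 27 in a flank. Regions over starts were wide, with a median of 1425 bp, against 351 bp for those in gene bodies and 625 bp for those in flanks. The region nearest to the limit on the inside lay 19.99 kb from BAZ1B, and the nearest outside lay 21.5 kb from RSF1.

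**Figure D1:**
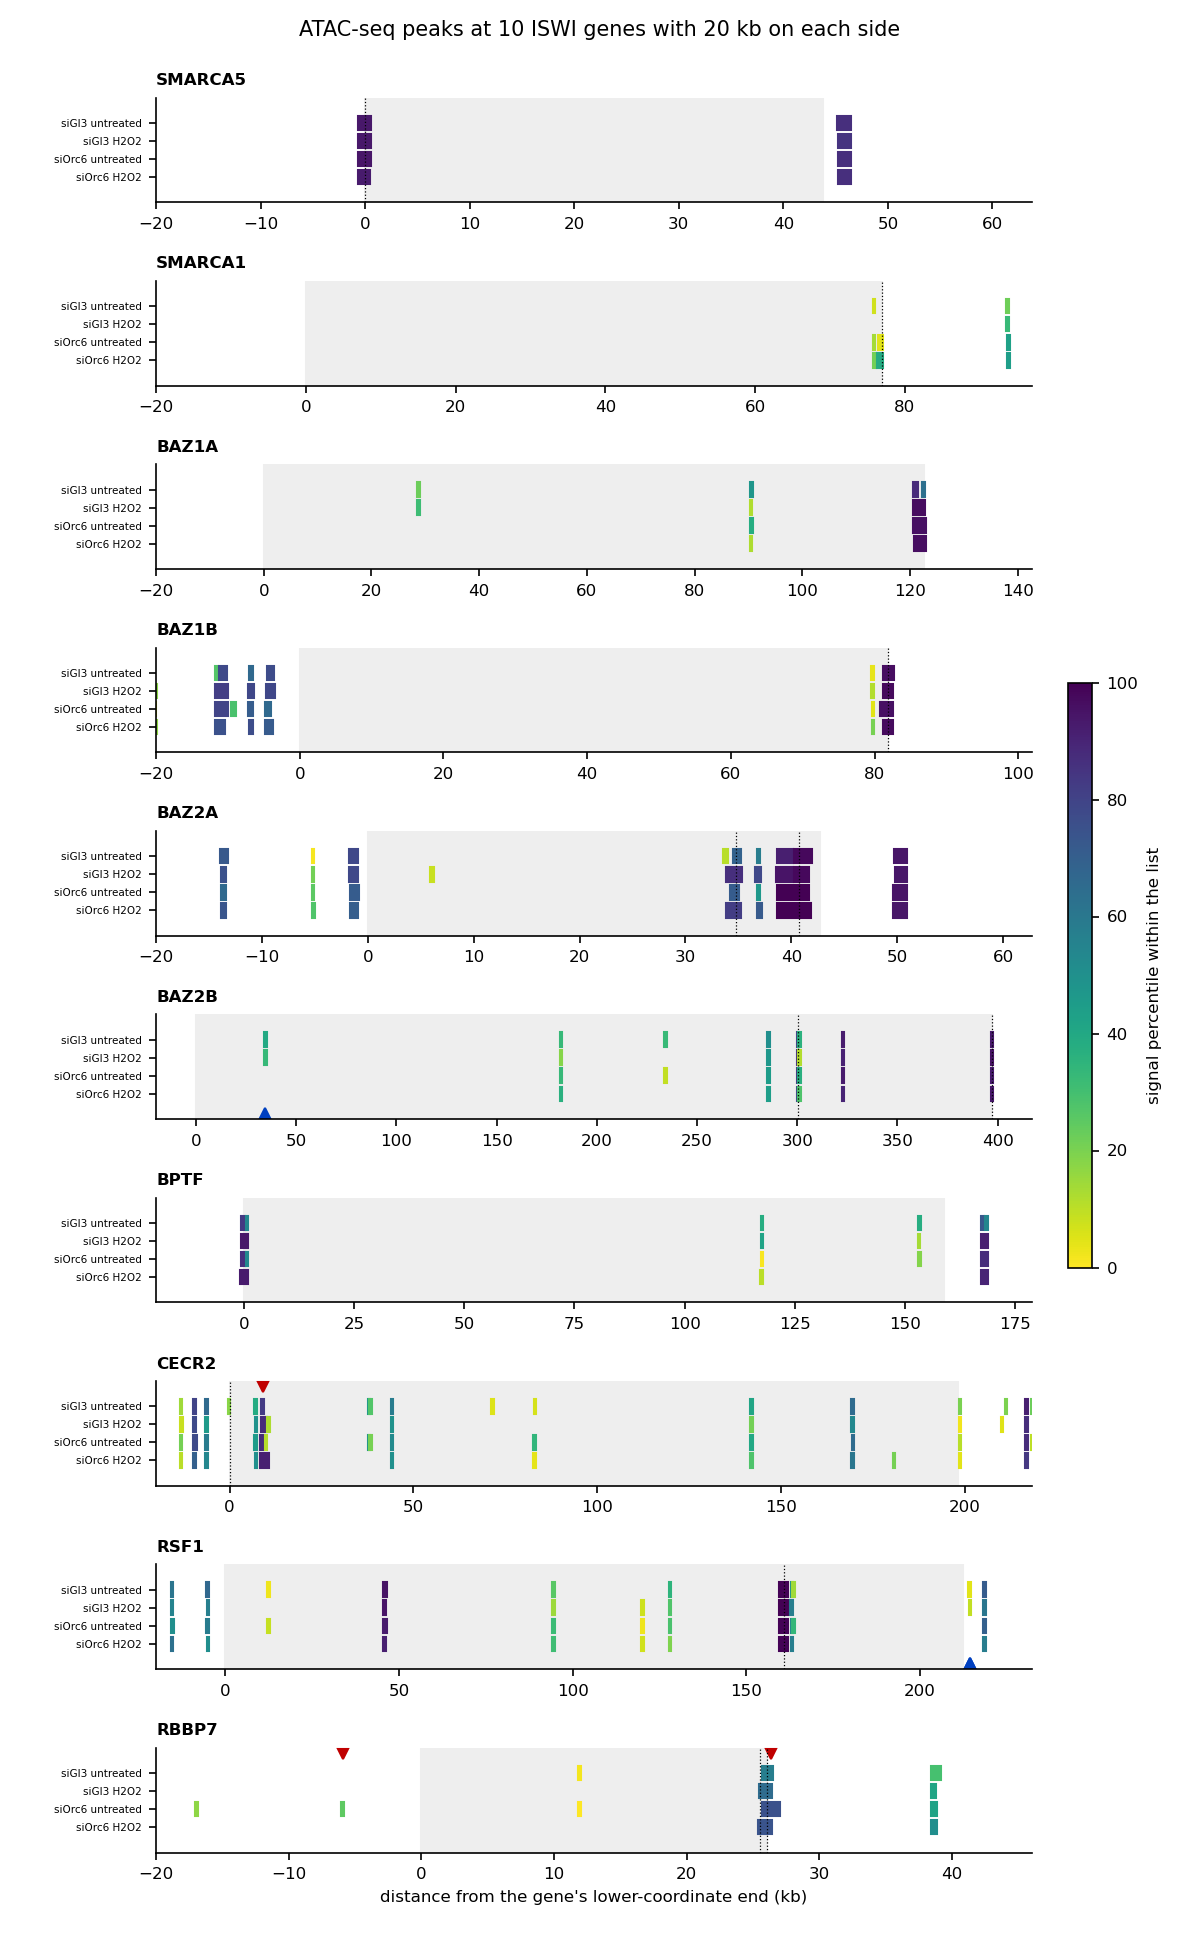
Peaks in the 4 lists (rows) at each ISWI gene, against the distance in kb from the lower-coordinate end of the gene; grey marks the gene span, dotted lines the starts in the promoter table, and colour the signal percentile. Narrow peaks are drawn wider than their length so that they can be seen. Triangles above the rows mark regions the authors called higher in siOrc6, and those below mark lower ones (the triangle at RSF1 stands for the untreated and the H2O2 call); 5 regions at 4 genes carry one.

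SMARCA5, the main ISWI ATPase, had a strong peak over its start in every list. This peak (chromosome 4, 143513033 to 143514271 in untreated siGl3) was 1239 bp wide in both untreated lists, 1201 bp in siGl3 with H2O2 and 1153 bp in siOrc6 with H2O2. It ranked at the 93.7 percentile in untreated siGl3, 93.6 in siGl3 with H2O2, 94.3 in untreated siOrc6 and 92.7 in siOrc6 with H2O2. Its position and its rank by summed signal were therefore close in all conditions. By signal per base, the percentiles without and with H2O2 were 91.3 and 92.5 in siGl3 and 96.3 and 95.4 in siOrc6. The summit lay at positions from -347 to -345 bp relative to the annotated start, outside the printed window. Over all coding genes, start peaks had median percentiles between 89.6 and 90.6 in the 4 lists. The second SMARCA5 region lay 1.32 kb beyond the far end of the gene (143558807 to 143560153), again in all 4 lists, at percentiles from 84.8 to 86.6. No region at SMARCA5 was called changed.

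SMARCA1, the second ATPase, differed from SMARCA5 in that neither siGl3 list had a peak over its start (chromosome X, 129523490). The nearest peak was 1007 bp away in untreated siGl3 and 16613 bp away in siGl3 with H2O2. Both siOrc6 lists had one: 638 bp wide without H2O2 (129522976 to 129523613) and 865 bp wide with it (129522759 to 129523623). These siOrc6 peaks were weak. Their percentiles were 4.63 without H2O2 and 38.9 with it, and among start peaks of coding genes in the same list 0.429% and 3.64% ranked as low. Ranked by signal per base in place of summed signal, the peak with H2O2 moved to the 3.47 percentile. The same presence, in both siOrc6 lists and no siGl3 list, was found at the start of 36 of 15812 coding genes with a listed start (0.228%), and the reverse at 30 (0.190%). The authors called no change at this region. A further region inside SMARCA1, about 1 kb from the start (129522317 to 129522527), had peaks at the 7.17 percentile in untreated siGl3, 13.3 in untreated siOrc6 and 21.4 in siOrc6 with H2O2, and none in siGl3 with H2O2.

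**Figure D2:**
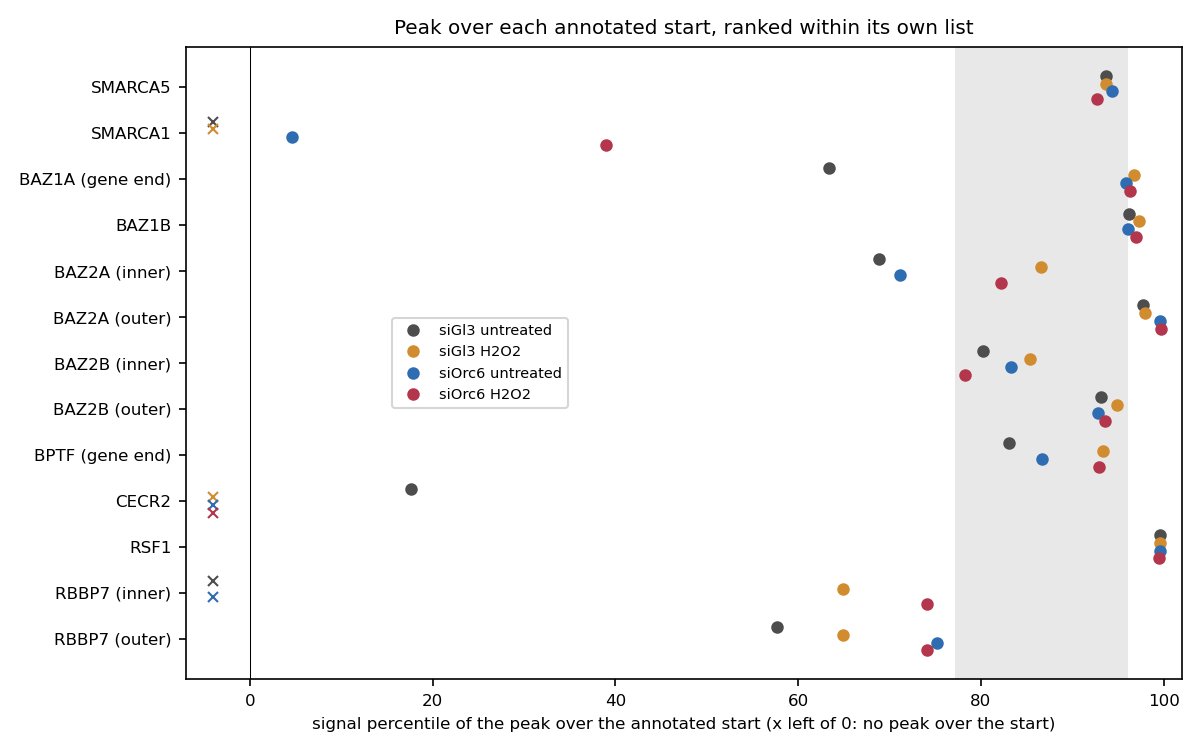
Signal percentile, within its own list, of the peak over each annotated start of the ISWI genes (for BAZ1A and BPTF, the annotated end that had a peak); crosses left of 0 mark lists with no peak there, and grey spans the lowest lower quartile to the highest upper quartile of start peaks over all coding genes. SMARCA1 has a peak in the siOrc6 lists only (4.63 and 38.9), CECR2 in untreated siGl3 only (17.6), and RSF1 lies above 99 in all 4.

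BAZ1A (ACF1) pairs with SMARCA5 in the ACF and CHRAC complexes, which space nucleosomes. A region of 2346 bp covered its end of higher coordinate (chromosome 14, 34873262 to 34875607) and had peaks in all 4 lists. In untreated siGl3 it was listed as 2 peaks, of 1018 bp at the 88.0 percentile and 527 bp over the end at the 63.4 percentile. In the other lists it was 1 peak, at percentiles of 96.7 in siGl3 with H2O2, 95.9 in untreated siOrc6 and 96.3 in siOrc6 with H2O2. With the signal of both siGl3 peaks summed, the region stood at the 92.8 percentile of regions in that list, against 95.6 to 96.4 in the other lists. By signal per base, the 2 untreated siGl3 peaks stood at 84.8 and, over the end, 65.3. The single peaks stood at 72.8 in siGl3 with H2O2, 73.6 in untreated siOrc6 and 78.4 in siOrc6 with H2O2. A region inside the gene (34781275 to 34781622) was listed in both siGl3 conditions, at the 22.3 and 31.5 percentiles, and in neither siOrc6 condition, and was not called changed.

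BAZ1B (WSTF) is the partner of SMARCA5 in the WICH complex, known at replication sites. Its start peak (chromosome 7, 73521629 to 73523081 in untreated siGl3) ranked between 96.1 and 97.3 in the 4 lists. It was 1453 bp wide in untreated siGl3, 1413 bp in siGl3 with H2O2, 1809 bp in untreated siOrc6 and 1418 bp in siOrc6 with H2O2. The summit was at -112 to -101 bp from the start. The extra width in untreated siOrc6 was on the side of the gene body, from 73521162, with no call of change. Its 5 flank regions lay on the side of FZD9, and 1 of them (73430889 to 73431589, 28.7 percentile) was listed only in untreated siOrc6.

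BAZ2A (TIP5) is the large subunit of the NoRC complex, which silences ribosomal RNA genes. Its outer listed start (chromosome 12, 56636359) lay in the widest region of the 10 genes, 3313 bp (56634185 to 56637497). Both siGl3 lists held 2 peaks there, and both siOrc6 lists 1 of 3082 and 3292 bp. The peak over the start had percentiles of 97.7 and 97.9 in siGl3 and 99.6 and 99.7 in siOrc6, without and with H2O2, and the authors called no change. With the signal summed over the region, the percentiles were 99.5 and 99.7 in siGl3 and 99.6 and 99.7 in siOrc6. By signal per base, the peak over the start stood at 94.7 and 98.6 in siGl3 and 92.9 and 93.9 in siOrc6. The siGl3 values leave out the second peak of each list, at 72.8 and 83.6. Each siOrc6 value is for 1 peak across both stretches, so these values do not give an order of the siRNAs. At the inner start (56630326), the percentiles were 68.8 in untreated siGl3, 71.2 in untreated siOrc6, 86.6 in siGl3 with H2O2 and 82.2 in siOrc6 with H2O2. Both H2O2 peaks there were wider (1451 and 1374 bp, against 839 and 913 bp). By signal per base these 4 values were 45.4, 49.5, 57.2 and 52.2. The body region between the starts (56632137 to 56632846) had percentiles of 57.9 in untreated siGl3, 46.8 in untreated siOrc6, 78.3 in siGl3 with H2O2 and 72.1 in siOrc6 with H2O2.

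BAZ2B, a bromodomain protein related to BAZ2A, had 2 listed starts with a peak in all 4 lists. The outer start (chromosome 2, 159712442), whose region also held the start of MARCHF7, had peaks of 1120 to 1185 bp at percentiles from 92.8 to 94.9. The inner start (159615565) shared its region with the start of the antisense gene BAZ2B-AS1 and had percentiles from 78.3 to 85.4. A region inside the gene (159637592 to 159638589) was nearly as strong as the outer start, with 92.5 in untreated siGl3, 90.9 in siGl3 with H2O2, 92.6 in untreated siOrc6 and 90.1 in siOrc6 with H2O2. ATAC-seq peaks carry no strand, so those over paired starts cannot be assigned to one gene.

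BPTF is the large subunit of the NURF complex and reads histone marks of active promoters. A region over its end of lower coordinate (chromosome 17, 67824554 to 67826465) had peaks in all 4 lists. Both untreated lists held 2 peaks there and both H2O2 lists 1, of 1745 bp in siGl3 and 1912 bp in siOrc6. The peak over the end had percentiles of 83.1 in untreated siGl3, 86.6 in untreated siOrc6, 93.4 in siGl3 with H2O2 and 92.9 in siOrc6 with H2O2. By signal per base, this peak stood at 75.9 in untreated siGl3 and 88.1 in untreated siOrc6, and at 71.6 and 70.8 with H2O2. The untreated values leave out the second peak of each list, at 36.1 and 39.7. Each H2O2 value is for 1 peak across both stretches, so these values do not give an order of the treatments. With the signal summed over the region, the values were 88.4 and 90.4 without H2O2 and 92.8 and 92.4 with it. A body region (67942890 to 67943205) had percentiles of 37.7 and 41.9 in the siGl3 lists and 1.14 and 10.3 in the siOrc6 lists, without H2O2 and with it, and was not called changed.

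CECR2, which forms the CERF complex with SMARCA1, had the most regions of the 10 genes. Its listed start (chromosome 22, 17359949) had a peak only in untreated siGl3 (17359619 to 17359958), 340 bp wide at the 17.6 percentile; 43 of 15812 coding genes (0.272%) had that presence. The other lists had their nearest peak between 5979 and 6015 bp away. The strongest peaks inside the gene lay at 17368218 to 17370799, a region of 2582 bp. Its main peak ranked at 82.6 in untreated siGl3, 88.0 in siGl3 with H2O2, 87.6 in untreated siOrc6 and 91.1 in siOrc6 with H2O2. The main peaks were 908, 1486, 1182 and 2531 bp wide in the same order. By signal per base their percentiles were 76.7, 60.4, 81.3 and 44.0. Part of this region was called higher in untreated siOrc6. Of the 19 regions, 10 were listed in all 4 conditions and 5 in 1 only.

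RSF1, the histone-binding partner of SMARCA5 in the RSF complex, had a wide start peak near the top of every list. It was 2627 bp wide in both untreated lists (chromosome 11, 77819344 to 77821970), 2593 bp in siGl3 with H2O2 and 2620 bp in siOrc6 with H2O2. All 4 percentiles were between 99.5 and 99.6. The region also held the start of AAMDC. A body region (77705278 to 77706535) ranked at 95.2 and 94.8 in the siGl3 lists and 92.6 and 91.5 in the siOrc6 lists, without H2O2 and with it. The other 4 regions between the start and the far end of the gene, listed in 2 to 4 conditions, had percentiles no higher than 35.3.

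RBBP7 (RbAp46) is a histone-binding protein of NURF and of several complexes outside the ISWI family. Its start peak was of middle rank among all peaks. The percentiles were 57.7 in untreated siGl3, 64.9 in siGl3 with H2O2, 75.2 in untreated siOrc6 and 74.0 in siOrc6 with H2O2. Start peaks of coding genes had higher lower quartiles in each list, at 77.3, 80.9, 80.1 and 81.4 in the same order. The RBBP7 peak was 821, 985, 1346 and 1019 bp wide, again in that order. Both siOrc6 values were thus above both siGl3 values in rank and in width. By signal per base, the percentiles were 23.1, 24.2, 33.5 and 47.7. The outer start (chromosome X, 16870362) was covered in all 4 lists, and the inner one (16869863) in both H2O2 lists only. Without H2O2 the nearest peak was 176 bp from the inner start in siGl3 and 133 bp from it in siOrc6.

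Of the 71 regions at ISWI genes, 5 overlapped a region that the authors called changed by siOrc6, at 4 of the 10 genes. Without H2O2, 3 of 71 (4.23%, 95% Wilson interval 1.45% to 11.7%) were at a higher region, while 6.85% of all merged regions were. A lower region was met at 2 of 71 (2.82%, interval 0.776% to 9.70%), against 4.74% of all. With H2O2, 0 of 71 were at a higher region (interval up to 5.13%), against 0.945% of all, and 1 (1.41%, interval 0.249% to 7.56%) at a lower one, against 1.19%. For any of the lists the shares were 7.04% and 12.4%. The intervals reflect counting error alone, as if regions were independent. Each holds the background share, but with 0 to 3 regions called they are too wide to show whether the shares differ. Counted by gene, 2 of 10 had a higher region without H2O2 within 20 kb and 24.8% of coding genes did. A lower one was near 2 of 10, against 17.8%. With H2O2 the counts were 0 of 10 against 3.3% for higher regions and 1 of 10 against 5.01% for lower ones. In any list 4 of 10 genes were met, against 38.2% of coding genes. Counts by gene were thus near the background, but without allowance for the length of the windows. The median window was 142 kb for the ISWI genes and 64.2 kb for all coding genes. By region the shares were below the background except for lower regions with H2O2, but the counts were too small to show a difference.

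**Figure D3:**
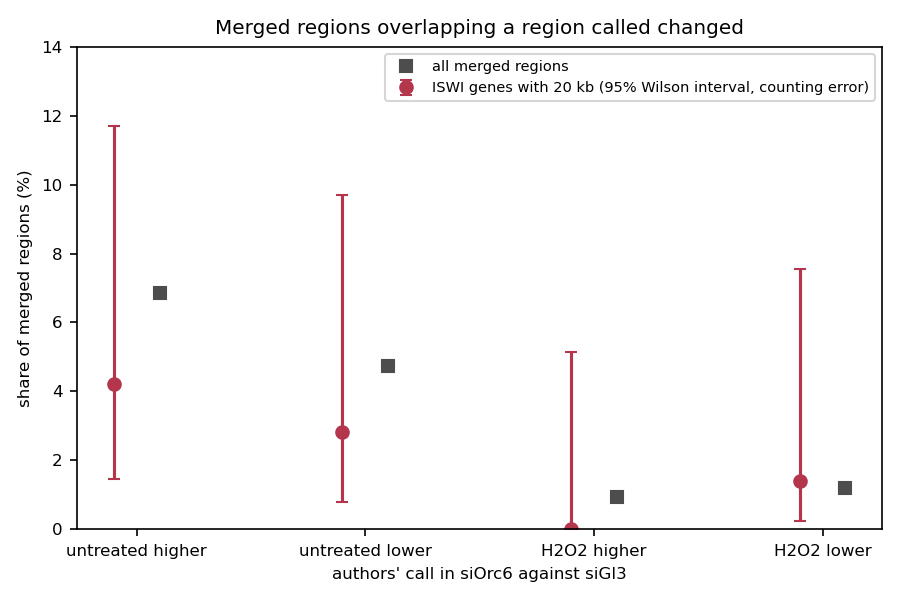
Share of merged regions (%) that overlap a region called higher or lower after siOrc6, by treatment, for the 71 regions at ISWI genes (circles, with 95% Wilson intervals for counting error) and for all 129052 merged regions (squares). The intervals rest on few called regions and are too wide to show whether the shares differ from the background. No ISWI region is at a higher region with H2O2.

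RBBP7 was the member with a called region over its start. The region called higher in untreated siOrc6 spanned 1347 bp (chromosome X, 16869995 to 16871341), which matches the untreated siOrc6 peak and holds the outer start and the promoter printed above. A second higher region of 205 bp lay 5833 bp beyond the other end of RBBP7 (16838303 to 16838507), inside TXLNG, with a peak only in untreated siOrc6 at the 24.8 percentile. At CECR2 the higher region of 1718 bp (chromosome 22, 17368217 to 17369934) was in the gene body, and its siOrc6 peaks without H2O2 were of 1182 and 222 bp, while siGl3 had 1 of 908 bp. None of these 3 regions was called with H2O2.

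The lower regions were small and at weak peaks. At BAZ2B, the region of 262 bp inside the gene (chromosome 2, 159349744 to 159350005) was called without H2O2. Its peaks had percentiles of 39.7 in untreated siGl3 and 33.0 in siGl3 with H2O2, and neither siOrc6 list had one. Near RSF1, the lower region spanned 339 bp without H2O2 (chromosome 11, 77874148 to 77874486) and 391 bp with it (77874149 to 77874539). It lay 1915 bp beyond the RSF1 span, inside AAMDC and across an annotated end of INTS4, and was the 1 region at an ISWI gene called in both treatments. Its siGl3 peaks ranked at 4.65 without H2O2 and 9.32 with it.

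Most regions at ISWI genes were listed in every condition. A peak in all 4 lists was found at 46 of 71 regions (64.8%, Wilson interval 53.2% to 74.9%), against 62.1% of all merged regions. Their median width was 741.5 bp, and the median of their best percentiles was 75.1. The 16 regions in 2 or 3 lists had 314.5 bp and 29.3, and the 9 in 1 list 340 bp and 17.6. By list, 62 of 71 regions had a peak in untreated siGl3, 54 in siGl3 with H2O2, 62 in untreated siOrc6 and 52 in siOrc6 with H2O2. In the same order these were 87.3%, 76.1%, 87.3% and 73.2%, against 85.6%, 77.3%, 82.1% and 73.4% of all merged regions, and the lower shares with H2O2 were near the background. All 7 regions that carried a peak under both siRNAs without H2O2 and under neither with it ranked below the middle of their lists. They made up 9.86% of ISWI regions, against 4.86% of all, and were 3 at CECR2, 2 at RSF1 and 1 each at BAZ2B and RBBP7. Of those at CECR2, 2 lay side by side (17397707 to 17398079 and 17398229 to 17398441). The difference in share rests on 7 regions and was not tested. Percentiles of the 7 regions ran from 1.67 to 46.8 in untreated siGl3 and from 0.179 to 48.7 in untreated siOrc6. The reverse, a peak under both siRNAs with H2O2 only, was found at 0 of 71 regions, against 1.45% of all. Both siGl3 lists alone held 3 regions, the BAZ1A, BAZ2B and RSF1 regions named above, and both siOrc6 lists alone held 1, at the SMARCA1 start. These were 4.23% of ISWI regions against 3.62% of all, and 1.41% against 1.53%, so both shares were near the background. Of start regions, 6 of 8 genes with a listed start had a peak over it in all 4 lists, and 62% of coding genes did. A gene with several listed starts was counted by the one with a peak in the most lists. RBBP7 thus counts among the 6 by its outer start, while its inner start had no peak in either untreated list.

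**Figure D4:**
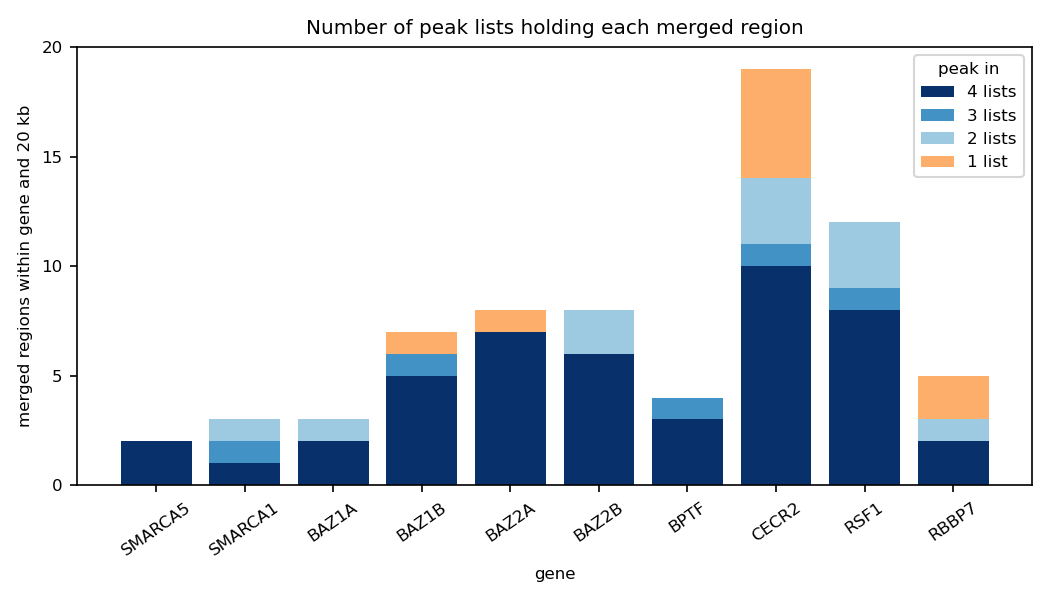
Number of merged regions within each ISWI gene and 20 kb on each side, divided by the number of the 4 peak lists that hold a peak there. SMARCA5 has 2 regions, both in all 4 lists, while CECR2 has 19, of which 10 are in all 4 and 5 in 1 list.

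Some wide regions were listed as several peaks. In untreated siGl3, 6 of 62 regions with a peak (9.68%) held 2, against 3.93% of all regions in that list. In siGl3 with H2O2 there were 2 (3.70%, against 3.70% of all), in untreated siOrc6 2 (3.23%, against 2.91%) and in siOrc6 with H2O2 0 (against 3.10%). The 6 in untreated siGl3 were at BAZ1A, BAZ1B, BPTF (2 regions) and BAZ2A (2 regions). Each part of a split peak carries only its share of the summed signal, which bears on the ranks of BAZ1A, BAZ2A, BPTF and CECR2 given above. Its signal per base likewise describes that part alone.

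Other ISWI partners gave 14 regions, of which 1 was called. RBBP4, a close relative of RBBP7, had a start peak in all 4 lists with percentiles from 98.0 to 98.4, and no called region. This is higher in each list than the RBBP7 start peak. POLE3, a histone-fold subunit of CHRAC, had its start covered in all 4 lists (88.5 to 92.3) and a higher region of 290 bp without H2O2, 8707 bp beyond the gene. CHRAC1, its partner, had a peak over its end of lower coordinate in all 4 lists, at the 99.8 percentile in each. Genes of other remodellers (SWI/SNF, CHD and INO80 families) had a called region within 20 kb at 7 of 22, among them ARID1A and CHD2 with 2 called regions each, histone chaperones at 8 of 16 and origin genes at 4 of 13. A called region was within 20 kb of 4 of 10 ISWI genes and of 38.2% of all coding genes. By region, 6.36% of those at other remodellers, 10.1% at chaperones and 15.2% at origin genes were called, beside 7.04% at ISWI genes and 12.4% of all. A start peak in all 4 lists was found at 15 of 18, 14 of 15 and 12 of 12 genes with a listed start. The same held for 6 of 8 ISWI genes and 62% of all coding genes with a listed start. RBBP4 and MCM2 are on more than one list, and longer genes hold more regions.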

How the data were processed

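Tools named in the submitters' processing notes are Genrich, edgeR, Bowtie2, SAMtools, Picard, deepTools and bcl2fastq (2.20), with build hg38; their roles, thresholds, duplicate handling and any shift of read ends are not given in the sources used here. Each deposited peak list has a display score, a peak signal and a −log10 p value per peak. The deposited score equals the signal over peak width, times 1000 and held at 1000, within 1 for 100% of peaks, so the signal is a sum over bases. Signal was used only to rank peaks within a list. The authors' changed regions carry positions only, with starts 1 bp ahead of the peaks that they share ends with.

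Chromosomes 1 to 22 and X were analysed; 147 to 168 peaks per list lay elsewhere. Overlap meant at least 1 bp. Genes and starts came from RefSeq tables of GRCh38.p14. In counts of coding genes by start, a gene with several listed starts entered with the one that had a peak in the most lists. No test was made, as each condition had 1 list. Members, gene lists and the naming rule (all members, every called region, each start peak and the widest regions) were chosen with earlier results of these data known, and motif letters after the promoters were seen. Code was checked on simulated intervals. Alternatives were other windows, a signal minimum, merging, overlap and ranks. Versions were matplotlib 3.10.9, scipy 1.17.1, pandas 2.3.3, numpy 2.4.6 and Python 3.11.15.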

Additional observations from a re-analysis of the deposited data

How the results depend on the processing

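No paired analysis was possible because each condition had 1 peak list for both libraries; for the same reason no replicate could be left out. With 5 kb or 50 kb windows, merging within 500 bp and overlap of 50% of the shorter interval, every count and share at ISWI genes stayed within its counting interval or within 1.5 times. In gene bodies only, 1 gene had a lower region without H2O2, and with H2O2 0 genes and 0% of regions did, since the RSF1 region lies in the flank. With only the upper 50% of peaks by signal, 79.4% of regions were in all 4 lists, and 0% were at a lower region without or with H2O2, since both lie at weak peaks. The share over all merged regions was not computed with this filter, so the 79.4% has no background beside it. Without the chromosome X genes, 1 gene had a higher region without H2O2. Start percentiles by signal per base were over 10 points from those by signal for 20 of 45 values (1 per start and list, so that both RBBP7 peaks with H2O2 count at 2 starts), and by −log10 p for 9 of 45. Ranking regions by their summed signal, chosen after seeing the data, did so for 1, at BAZ1A. Read depth is unknown, so a peak missing from a list cannot be told apart from one just under the authors' threshold. The lowest signal in each list was 200. The SMARCA1 start peak had a signal of 229 in untreated siOrc6 and 620 in siOrc6 with H2O2. At the lower region near RSF1, the siGl3 peaks had 227 without H2O2 and 258 with it.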

Other observations

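Several regions in the flanks of ISWI genes lay over starts of neighbouring genes, and each of the following had a peak in all 4 lists unless stated. The start of OCRL (chromosome X, 129540103 to 129540569), 16.6 kb from SMARCA1, had percentiles of 32.5 in siGl3 with H2O2, 42.9 in untreated siOrc6 and 44.2 in siOrc6 with H2O2, with a lower one in untreated siGl3. The widths, from untreated siGl3 through siGl3 with H2O2 and untreated siOrc6 to siOrc6 with H2O2, were 226, 273, 451 and 466 bp. Both siOrc6 peaks there were thus wider than both siGl3 peaks, and the authors called no change. Over all peaks the median widths were 471, 453, 485 and 468 bp in the same order. The start of FZD9, a WNT receptor gene beside BAZ1B (chromosome 7, 73433222 to 73433994), ranked from 66.4 to 78.5. The start of C17orf58 beside BPTF (chromosome 17, 67992688 to 67994370) was listed as 2 peaks in untreated siGl3 and as 1 peak of 1608 to 1678 bp in the other lists. The start of LOC105372850 near CECR2 had a peak only in siGl3 with H2O2, at the 4.74 percentile.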
